A study of Rattus norvegicus with 12 samples.

Results

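The genes described are 41 that drive the cell division cycle and copy DNA, from the cyclins and their kinases through the replication helicase to the mitotic spindle. They were taken by symbol, and each was read from its brightest array probe that lay well above background on at least 3 arrays. Of the 41 genes, 40 were measured, among 19357 genes read in all, and Mki67 was not analysed here because no probe carried that symbol. The 40 genes lay well above background on all 12 arrays, so no gene was lost or kept through its level in 1 group.

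Cells enter the cycle when D-type cyclins with Cdk4 or Cdk6, and then cyclin E with Cdk2, release E2F transcription factors, which switch on genes for DNA replication. Cdc6 and Cdt1 load the ring of Mcm proteins onto replication origins, Pcna holds the polymerases on the DNA, and cyclin B with Cdk1 starts mitosis. In the fetal pituitary, dividing progenitors give rise to the hormone-producing cells, which divide less as they mature.

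The arrays measured RNA of pituitaries from Wistar rat fetuses at gestational day 18. The series title names maternal exposure to a dioxin, labelled TCDD, which binds the aryl hydrocarbon receptor, a transcription factor. There were 4 groups of 3 arrays: control and TCDD-exposed fetuses of each sex. Arrays are named by group and replicate, as in male TCDD 1. All tissues were placed in an RNA stabilising solution. The labels used here give no dose, no day of dosing, no vehicle for the controls, no litter and no number of pituitaries behind an array, so the p-values measure only the spread between these samples, which may be partly technical. Slide 1 held the male control arrays and male TCDD 1. Slide 2 held the other exposed males with female control 1 and 2, and the remaining female arrays, control 3 and the exposed ones, were on slide 3.

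Of the 42877 non-control spots on an array, 75.1% to 78.4% lay well above background and 0 were saturated, and precision is limited by how many arrays there are. Of 14 markers of hormone-producing pituitary cells, 14 were measured and 12 lay well above background on all 12 arrays. The arrays also differed in RNA of sensory ganglion neurons. Avil, an actin-binding protein of such neurons, had levels from 0.17 to 1.62 on 6 arrays, with the other 6 between -3.69 and -3.33. These are log2 levels relative to the 75th percentile of each array, the scale of every level below. High Avil was found on 4 of 6 exposed arrays (male TCDD 1 and 2, female TCDD 1 and 3) and on 2 of 6 control arrays (replicate 2 of each sex). All 20 ganglion markers, which include Avil itself, lay well above background on each array of high Avil. On each array of low Avil 16 to 18 of them did. The groups are compared first, and the arrays of high and low Avil afterwards.

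Many genes of this kind share short sequence elements upstream of their start. The cell cycle homology region (CHR, TTTGAA or TTCGAA) is bound by complexes that restrict genes to G2 and mitosis, CCAAT is bound by the factor NF-Y, and the E2F sites searched were TTCCCGC and also TTCGCGC, with TTGCCGC and likewise TTGGCGC. A core of the aryl hydrocarbon response element reads TNGCGTG. The 250 bases upstream of the start were searched on both strands in the RefSeq promoters of the GRCr8 build, which held 30 of the 41 genes, Mki67 among them. CHR was present in 11 of the 30 (36.7%, against 17.4% of all 33469 promoters) and CCAAT in 22 (73.3% against 34%). An E2F site was present in 10 (33.3% against 7.59%) and the response element core in 4 (13.3% against 4.09%), namely Mcm6, Pcna, Bub1b and Nusap1. A match describes letters in this window and is not a binding site. Matches may overlap, and a palindromic E2F site counts on each strand. None of 12 spindle gene promoters held an E2F site, while 9 held CCAAT. Of 7 promoters of licensing and fork genes, 4 held an E2F site and 5 held CCAAT. Of 3 promoters of S, G2 and mitosis regulators, 2 held an E2F site and 3 held CCAAT.

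The upstream stretches of 4 genes are printed because these genes, a mitotic pair and a replication pair, show these layouts and stand among the results below. Capitals mark a match to CHR, CCAAT or E2F on either strand, and each stretch runs 5′ to 3′ up to the base before the start. Cdk1 lies at chr20:19265043-19265292 on the plus strand. Ccnb2 lies at chr8:79981659-79981908, Mcm2 at chr4:122918095-122918344 and Mcm7 at chr12:22163179-22163428, each on the minus strand.
Cdk1: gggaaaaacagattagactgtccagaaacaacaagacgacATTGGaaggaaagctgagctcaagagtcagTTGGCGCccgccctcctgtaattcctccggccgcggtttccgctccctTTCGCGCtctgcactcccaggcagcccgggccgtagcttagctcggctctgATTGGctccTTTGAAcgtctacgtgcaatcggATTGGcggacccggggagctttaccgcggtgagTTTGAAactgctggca
Ccnb2: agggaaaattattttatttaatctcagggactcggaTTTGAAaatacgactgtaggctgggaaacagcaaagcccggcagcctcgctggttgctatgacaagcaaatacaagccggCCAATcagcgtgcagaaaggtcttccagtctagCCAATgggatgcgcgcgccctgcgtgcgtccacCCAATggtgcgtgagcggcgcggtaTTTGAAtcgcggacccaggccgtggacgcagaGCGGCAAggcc
Mcm2: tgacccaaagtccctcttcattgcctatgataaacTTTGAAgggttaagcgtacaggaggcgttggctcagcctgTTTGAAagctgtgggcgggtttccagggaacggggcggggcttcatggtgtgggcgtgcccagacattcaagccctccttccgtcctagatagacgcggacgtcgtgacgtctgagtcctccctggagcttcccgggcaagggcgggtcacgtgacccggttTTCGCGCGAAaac
Mcm7: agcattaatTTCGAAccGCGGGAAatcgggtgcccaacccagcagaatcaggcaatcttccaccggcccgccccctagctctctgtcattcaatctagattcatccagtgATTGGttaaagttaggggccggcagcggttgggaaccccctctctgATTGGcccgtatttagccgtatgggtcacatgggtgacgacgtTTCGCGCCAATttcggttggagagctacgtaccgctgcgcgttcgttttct
Cdk1 and Ccnb2 each held 2 CHR and 3 CCAAT matches, with CHR matches beginning 16 and 43 bases before the start respectively. In Mcm2 a palindromic E2F match began 13 bases before the start, and in Mcm7 an E2F match overlapped a CCAAT box. The pairs shared elements: Mcm2 also held 2 CHR matches, and Mcm7 held 1 CHR and 3 CCAAT matches. Cdk1 also held 2 E2F matches and Ccnb2 held 1.

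The first comparison asked whether cell cycle genes differed between pituitaries of exposed and control fetuses. None of the 40 genes passed the test, whether for males, for females or for both sexes together (limma, adjusted p below 0.05, over 19357 genes). The share of all genes that passed was 0.0103% (2 genes) for males, likewise 0.0103% (2 genes) for females, and 0.0207% (4 genes) for both sexes together. At an unadjusted p below 0.05, the genes with lower levels after exposure were Ccnd2 and Ccne2 in males (2 of 40, or 5%, against 2.93% of all genes), 0 in females (against 1.97%), and Ccnd1, Ccnd2 and Cdk6 over both sexes (3 of 40, or 7.5%, against 3.53%). None was higher at that level, against 6.48% of all genes in males, 0.666% for females and 2.91% for both sexes.

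The estimates were small and most lay below 0. In males the log2 difference (TCDD minus control) ranged from -0.61 to 0.17 and was below 0 for 30 of the 40 genes (75%, against 51.1% of all genes), with a median of -0.14 against -0.0075 for all genes. In females it ranged from -0.35 to 0.10 and was also below 0 for 30 of 40 (against 58.9% of all genes), with a median of -0.044 against -0.034. Over both sexes 35 of the 40 differences were below 0 (87.5%, against 55.4% of all genes), with a median of -0.080 against -0.021. Markers of other cells also differed with exposure over both sexes. The 20 ganglion markers had a median log2 difference of 1.64 (19 above 0) and the 9 of peripheral glia 0.82 (9 above 0). The 14 of hormone-producing cells had -0.51 (12 below 0) and the 9 of pituitary progenitors -0.37 (9 below 0). For 11 skeletal muscle markers the median was -0.40 (11 below 0). It was -0.15 for 8 macrophage markers (8 below 0) and -0.12 for 8 endothelial markers (7 below 0). For 11 erythroid markers it was -0.11 (8 below 0), and for 9 mesenchymal markers -0.039 (5 below 0). Of these lists 0 markers passed the test (limma). Values of the 40 genes with Avil as a covariate and without the arrays of high Avil are given with that split. The 95% intervals, gene by gene, are those of the fit without slide or Avil. In each sex the intervals of all 40 genes lay within a log2 difference of 1 either way, and over both sexes 36 of 40 lay within 0.5. With the slide added to the fit as a block, the male difference of Ccnd2 was -0.95 (SE 0.213), so its interval there passed that bound of 1. The widest bounds over both sexes were -0.71 and 0.25.

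**Figure D1:**
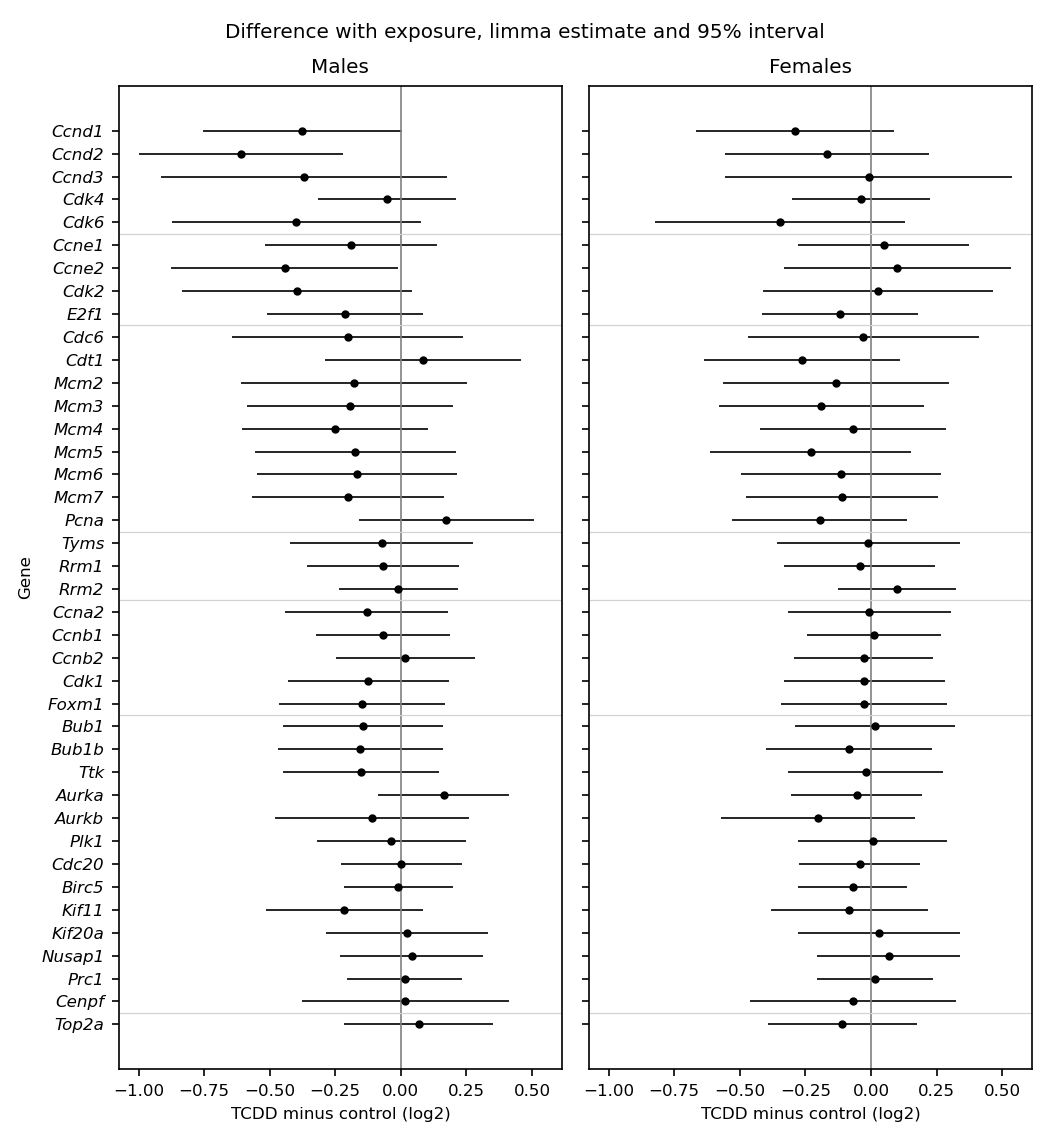
Difference between exposed and control arrays for each of the 40 genes, in males (left) and females (right); the horizontal axis is the log2 difference, points are limma estimates and bars 95% intervals, with 3 arrays per group, and pale lines separate the functional groups. Ccnd2 in males, at -0.61, lies farthest from 0, and all intervals lie within 1 of 0.

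The G1 cyclins and their kinases, which take cells from rest into the cycle, had the lowest differences. All 5 were below 0 in each sex, with a median of -0.33 over both sexes, and 0 of the 5 passed the test. Ccnd2, cyclin D2, was read by a 60-base probe whose position spans 6825 bases, and so crosses an intron, at chr4:163535032-163541856 on the minus strand of the rn4 build. The probe is printed because this gene had the largest difference of the 40.
Ccnd2 probe: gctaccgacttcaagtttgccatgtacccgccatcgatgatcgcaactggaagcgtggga
The Ccnd2 level was 1.43, 1.20 and 1.46 on the male control arrays and 0.41, 0.66 and 1.18 on the male TCDD arrays. All 3 exposed males lay below all 3 control males, though male TCDD 3 missed male control 2 by little. Of the 40 genes, Ccnd2 was the 1 whose male groups did not overlap downwards, against 5.92% of all genes, and 0 did not overlap upwards, against 8.53%. The log2 difference in males was -0.61 (SE 0.175, 95% interval -0.998 to -0.22, unadjusted p = 0.00574, adjusted p = 0.493, limma). Female controls were at 1.26, 0.91 and 1.18 and female TCDD arrays at 0.91, 1.03 and 0.91, which overlapped, and the log2 difference was -0.17 (SE 0.175, adjusted p = 1, limma).

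The male value of Ccnd2 moved with the settings. Its lowest arrays, male TCDD 1 and 2, were also the male arrays of highest Avil. With Avil as a covariate the log2 difference was -0.44 (adjusted p = 0.258, limma), and without the 6 arrays of high Avil it was -0.26 (adjusted p = 0.999). With the slide as a block it was -0.95 (adjusted p = 0.142), and within slide 1 it was also -0.95 (adjusted p = 0.0646), the lowest adjusted p of any of the 40 genes under any setting. These are the same estimate and not separate evidence, because every male control lay on slide 1. In both, male TCDD 1 alone stands for exposure, and within slide 1 it is assumed to vary like the controls. The same limit holds for every male value with the slide as a block, above and below. Female values with that block rest likewise on female control 3 as the control, and values over both sexes combine the 2. Without male TCDD 1 the male difference of Ccnd2 was -0.44 (adjusted p = 0.589).

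Ccnd1, cyclin D1, was at 0.73, 0.37 and 0.41 on male control and at -0.15, 0.07 and 0.46 on male TCDD arrays. Its female controls were at 0.73, 0.28 and 0.49 and female TCDD arrays at 0.08, 0.34 and 0.21. The groups overlapped in both sexes, and the lowest value was that of male TCDD 1. Over both sexes the log2 difference was -0.33 (SE 0.121, unadjusted p = 0.0196, adjusted p = 0.67, limma), and it was -0.21 with Avil as a covariate and -0.47 with the slide as a block.

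Cdk6, a kinase partner of the D-type cyclins, was at -1.68, -1.87 and -1.49 on male control and at -2.51, -2.09 and -1.64 on male TCDD arrays. Female controls were at -1.45, -1.97 and -1.85, and female TCDD arrays at -2.25, -2.04 and -2.01. All 3 exposed females lay below all 3 control females, which held for no other of the 40 genes (1 of 40, or 2.5%, against 5.47% of all genes), while 0 did not overlap upwards, against 1.49%. The log2 difference was -0.35 in females (SE 0.214, adjusted p = 1, limma) and -0.37 over both sexes (SE 0.151, unadjusted p = 0.0329, adjusted p = 0.67). Without the 6 arrays of high Avil it was -0.22 over both sexes, in males it was -0.053, against -0.40 with all arrays, and in females it was -0.39, against -0.35. Without male TCDD 1 the male difference of Cdk6 was -0.18, and with the slide as a block it was -0.83 (adjusted p = 0.142, limma).

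Ccnd3, cyclin D3, was at 0.86, 0.57 and 0.83 on male control arrays and at -0.15, 0.33 and 0.99 on male TCDD arrays, the widest spread within a group among these cyclins. Its female values were 0.62, 0.53 and 0.97 in controls and 0.60, 0.91 and 0.58 after exposure. Groups overlapped in both sexes, and the differences were -0.37 in males (SE 0.246) and -0.0095 in females (adjusted p = 0.526 and 1, limma). The male difference of Ccnd3 was -0.098 without male TCDD 1, 0.14 without the 6 arrays of high Avil and -0.91 with the slide as a block (adjusted p = 0.142, limma). Cdk4, the other kinase of the D-type cyclins, ranged over the 12 arrays only from 2.32 to 2.69, with a difference over both sexes of -0.046 (SE 0.084).

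**Figure D2:**
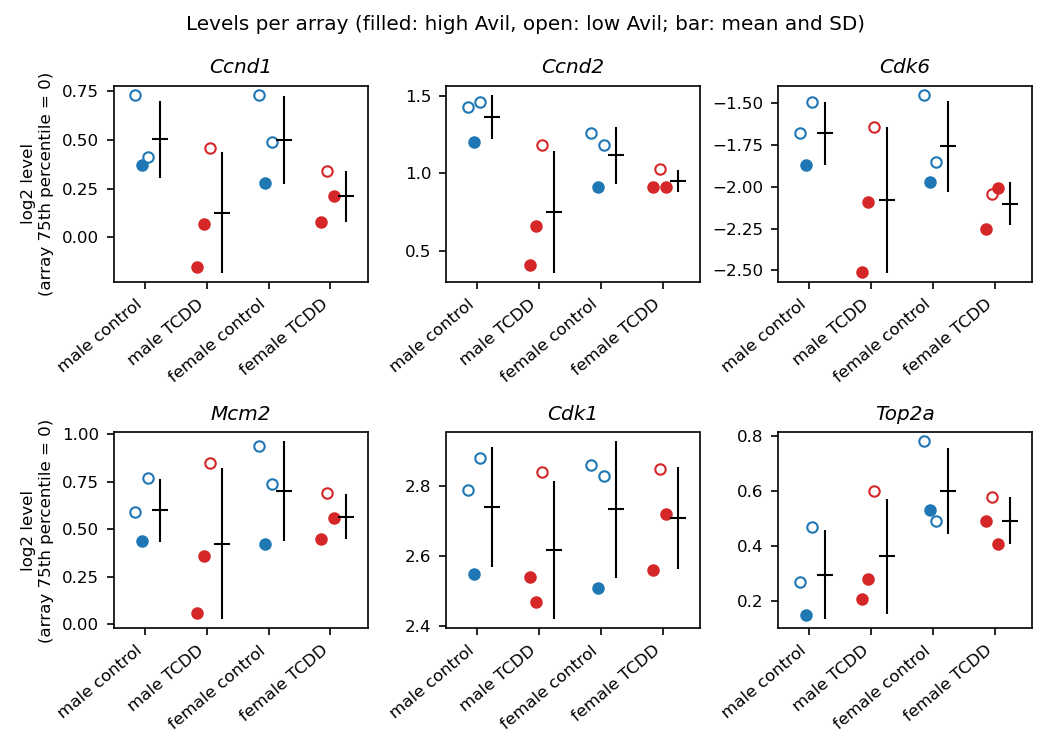
Level of 6 genes on each array, by group; the vertical axis is the log2 level relative to the array's 75th percentile, filled points are arrays of high Avil, open points arrays of low Avil, and the bar beside each group is the mean and SD of 3 arrays. In each exposed group 2 of 3 points are filled, and filled points sit at the lower end of most groups.

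The genes of the G1 to S step were 4, and all 4 were below 0 over both sexes, with a median of -0.17 and 0 passing the test. Ccne2, cyclin E2, was at -3.31, -3.60 and -2.98 on male control and at -3.76, -3.87 and -3.59 on male TCDD arrays. Male control 2 and male TCDD 3 overlapped narrowly, and the log2 difference was -0.44 (SE 0.195, unadjusted p = 0.0461, adjusted p = 0.505, limma). Ccne2 was at -3.75, -3.91 and -3.37 in control females and at -3.69, -3.34 and -3.70 in exposed females, with a difference of 0.10 (SE 0.195). Cdk2, the kinase of cyclin E, was at -0.81, -1.02 and -0.69 in control males and at -1.47, -1.28 and -0.95 in exposed males. In females it was at -0.82, -1.27 and -0.73 in controls and at -1.14, -0.58 and -1.02 after exposure, where female TCDD 2 was the highest array of the 12. The differences of Cdk2 were -0.40 in males and 0.027 in females (SE 0.197, adjusted p = 0.505 and 1, limma). E2f1, which activates replication genes, was at 0.51, 0.14 and 0.39 in control and 0.04, -0.03 and 0.39 in exposed males. Female controls were at 0.34, 0.18 and 0.36 and exposed females at 0.04, 0.29 and 0.19. Groups overlapped, and the difference over both sexes was -0.17 (SE 0.0947, adjusted p = 0.67, limma).

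Replication licensing and fork genes were below 0 over both sexes in 9 of 9 cases, with a median of -0.16, and 0 of the 9 passed the test. The range was narrow, from -0.20 for Mcm5 to -0.011 for Pcna. Mcm2, a subunit of the replicative helicase, was at 0.59, 0.44 and 0.77 in control males and at 0.06, 0.36 and 0.85 in exposed males, the highest of which was above every control. Female Mcm2 was at 0.94, 0.42 and 0.74 in controls and at 0.45, 0.69 and 0.56 after exposure. The difference of Mcm2 over both sexes was -0.16 (SE 0.137, adjusted p = 0.687, limma). It was -0.064 without male TCDD 1, 4.9e-05 with Avil as a covariate and -0.36 with the slide as a block (adjusted p = 0.226, limma). Mcm3, of the same ring, was at 2.11, 1.88 and 2.16 in control and at 1.54, 1.78 and 2.25 in exposed males, and at 2.37, 1.93 and 2.16 in control and 1.83, 2.10 and 1.96 in exposed females. Mcm5, a further subunit, was at -0.99, -1.18 and -0.89 against -1.45, -1.31 and -0.80 in males and at -0.80, -1.23 and -1.11 against -1.40, -1.20 and -1.23 in females, controls first. In both genes the lowest male array was male TCDD 1 and the highest male array was male TCDD 3, so the exposed males bracketed the controls. Over both sexes Mcm3 differed by -0.19 (SE 0.125) and Mcm5 by -0.20 (SE 0.122), each with an adjusted p of 0.67 (limma).

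Pcna, the sliding clamp of the replication fork, had a male estimate above 0, which was not tested against those of the Mcm genes. It was at 1.04, 1.15 and 1.45 in control males and at 1.20, 1.26 and 1.70 in exposed males. Female controls were at 1.70, 1.41 and 1.50 and exposed females at 1.24, 1.42 and 1.36. Groups overlapped, and the differences were 0.17 in males and -0.20 in females (SE 0.15, adjusted p = 0.582 and 1, limma). The male value of Pcna was 0.017 without male TCDD 3, 0.085 without male control 1, 0.46 without the 6 arrays of high Avil and -0.015 with the slide as a block. Cdt1, which loads the helicase with Cdc6, had estimates of 0.085 in males and -0.26 in females (SE 0.168).

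Deoxynucleotide synthesis genes supply the building blocks of DNA. The 3 genes, Tyms, Rrm1 and Rrm2, differed by -0.041, -0.056 and 0.044 over both sexes, and 0 passed the test. The S, G2 and mitosis regulators were 5, all below 0 over both sexes, with a median of -0.069 and 0 passing. Cdk1, the mitotic kinase, was at 2.79, 2.55 and 2.88 in control males and at 2.54, 2.47 and 2.84 in exposed males. In females Cdk1 was at 2.86, 2.51 and 2.83 in controls and at 2.56, 2.85 and 2.72 after exposure. Groups overlapped, and the difference over both sexes was -0.075 (SE 0.0975, 95% interval -0.29 to 0.14, adjusted p = 0.767, limma).

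Ccnb1, cyclin B1, was at -0.40, -0.59 and -0.39 in control and -0.53, -0.71 and -0.33 in exposed males, and at -0.38, -0.63 and -0.49 in control and -0.60, -0.39 and -0.48 in exposed females. Its difference over both sexes was -0.028 (SE 0.0817, adjusted p = 0.903, limma). Ccnb2, cyclin B2, was at -0.57, -0.68 and -0.53 in control and -0.71, -0.68 and -0.36 in exposed males, and at -0.39, -0.70 and -0.55 in control and -0.70, -0.47 and -0.57 in exposed females. Its groups overlapped, with a difference over both sexes of -0.0050 (SE 0.0844, adjusted p = 0.985, limma). Foxm1, a transcription factor that switches on mitotic genes, was at -0.74, -0.92 and -0.64 against -1.04, -0.98 and -0.73 in males and at -0.66, -1.03 and -0.76 against -1.08, -0.68 and -0.77 in females, controls first. Its difference was -0.088 (SE 0.101, adjusted p = 0.738, limma), and the groups overlapped in both sexes.

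The 13 genes of the spindle, kinetochore and cytokinesis had the median closest to 0 among functional groups of more than 1 gene, at -0.026 over both sexes, with 9 of 13 below 0 and 0 passing. They ran from -0.16 for Aurkb, the kinase of the chromosomal passenger complex, to 0.054 for Aurka, the centrosomal kinase. Bub1 and Bub1b, of the spindle checkpoint, differed by -0.064 and -0.12, and Plk1, a kinase of mitotic entry, by -0.015. Top2a, the topoisomerase that untangles chromosomes and a common mark of dividing cells, was at 0.27, 0.15 and 0.47 in control males and at 0.21, 0.28 and 0.60 in exposed males. In females Top2a was at 0.78, 0.53 and 0.49 in controls and at 0.49, 0.58 and 0.41 after exposure. The difference over both sexes was -0.021 (SE 0.0902, 95% interval -0.22 to 0.18, adjusted p = 0.937, limma).

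Of other genes of the same processes, 0 passed the test over both sexes in any of 3 further lists, whose counts below 0 stand against 55.4% of all genes and whose medians stand against -0.021. Of 38 other replication genes, 38 were measured and 28 were below 0, with a median of -0.077. The smallest p-values there were those of Fen1, the flap nuclease (-0.19), Dut, the dUTPase (-0.22), Orc6 of the origin recognition complex (-0.19) and Prim1, a primase subunit (-0.19). Of 41 other mitosis genes 34 were measured, 21 of them below 0, with a median of -0.039. Of 29 cell cycle inhibitors and E2F partners 24 were measured, with 17 below 0 and a median of -0.088.

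The next comparison asked whether the difference with exposure was unlike in males and females. None of the 40 genes passed the test of that interaction, and neither did any of the 19357 genes (0%, limma). At an unadjusted p below 0.05, 0 of the 40 genes were found in either direction, against 3.91% of all genes with a higher and 0.568% with a lower effect in males. The 4 genes of smallest p were Ccne2 (male minus female effect -0.54, SE 0.276, unadjusted p = 0.0764), Ccnd2 (-0.44, SE 0.248), Pcna (0.37, SE 0.213) and Cdk2 (-0.42, SE 0.279), each with an adjusted p of 0.88 (limma). The precision was low here, with 95% intervals reaching from -1.16 to 0.88 over the 40 genes, so the different signs in males and females of Pcna, Ccne2 and Cdk2 are not shown to be differences between the sexes.

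Control males and control females were compared as the baseline. None of the 40 genes passed (limma), against 0.0103% of all genes (2 genes). The median difference, male minus female, was 0.0011 over the 40 genes against -0.032 for all genes, with 20 of 40 below 0 (50%, against 57.9% of all genes). Top2a was the only gene of the 40 at an unadjusted p below 0.05 (1 of 40 lower in males, or 2.5%, against 4.77% of all genes). It differed by -0.31 (SE 0.128, unadjusted p = 0.0367, adjusted p = 0.848, limma), with male controls at 0.27, 0.15 and 0.47 all below female controls at 0.78, 0.53 and 0.49. Pcna differed by -0.32 (SE 0.15, adjusted p = 0.941), while Cdk1 and the other mitotic regulators lay near 0, with a median of 0.015 over 5 genes. With the slide as a block the median of the 40 genes was 0.20. Only slide 2 held both sexes, as exposed males and control females, so sex and slide are hard to part in the controls.

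The last pattern is not one of labelled groups. On the 6 arrays of high Avil, each of the 40 genes had a lower mean than on the 6 arrays of low Avil (40 of 40, against 67.4% of all genes). The median difference, high minus low, was -0.26 on the log2 scale against -0.13 for all genes, so about as much again as the shift of all genes. The 40 values ran from -0.46 for Ccnd3 to -0.11 for Birc5, an inhibitor of apoptosis that also acts at the centromere. The arrays of high Avil are no group of the labels, so these values are a description and have no test.

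For 13 of the 40 genes (32.5%) the arrays of high and low Avil did not overlap, with high Avil lower in each (against 7.68% of all genes), and for 0 genes high Avil lay above (against 7.98%). They were Ccnd3, Cdk2, E2f1, Cdc6, Mcm2, Mcm3, Mcm4, Mcm7, Cdk1, Foxm1, Bub1b, Ttk and Cdc20. Cdk1 lay between 2.47 and 2.72 on arrays of high Avil and between 2.79 and 2.88 on arrays of low Avil. Mcm4 lay between 0.87 and 1.27 against 1.43 to 1.53, the narrowest range on arrays of low Avil among the Mcm genes. Mcm7 lay between 1.96 and 2.31 against 2.34 to 2.65. Mcm4 and Mcm7 are subunits of the same helicase ring. E2f1 lay between -0.03 and 0.19 against 0.29 to 0.51. Cdk1, the Mcm genes and E2f1 act in mitosis, at the replication origin and in transcription of S phase genes, so the separation was not limited to 1 step of the cycle.

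**Figure D3:**
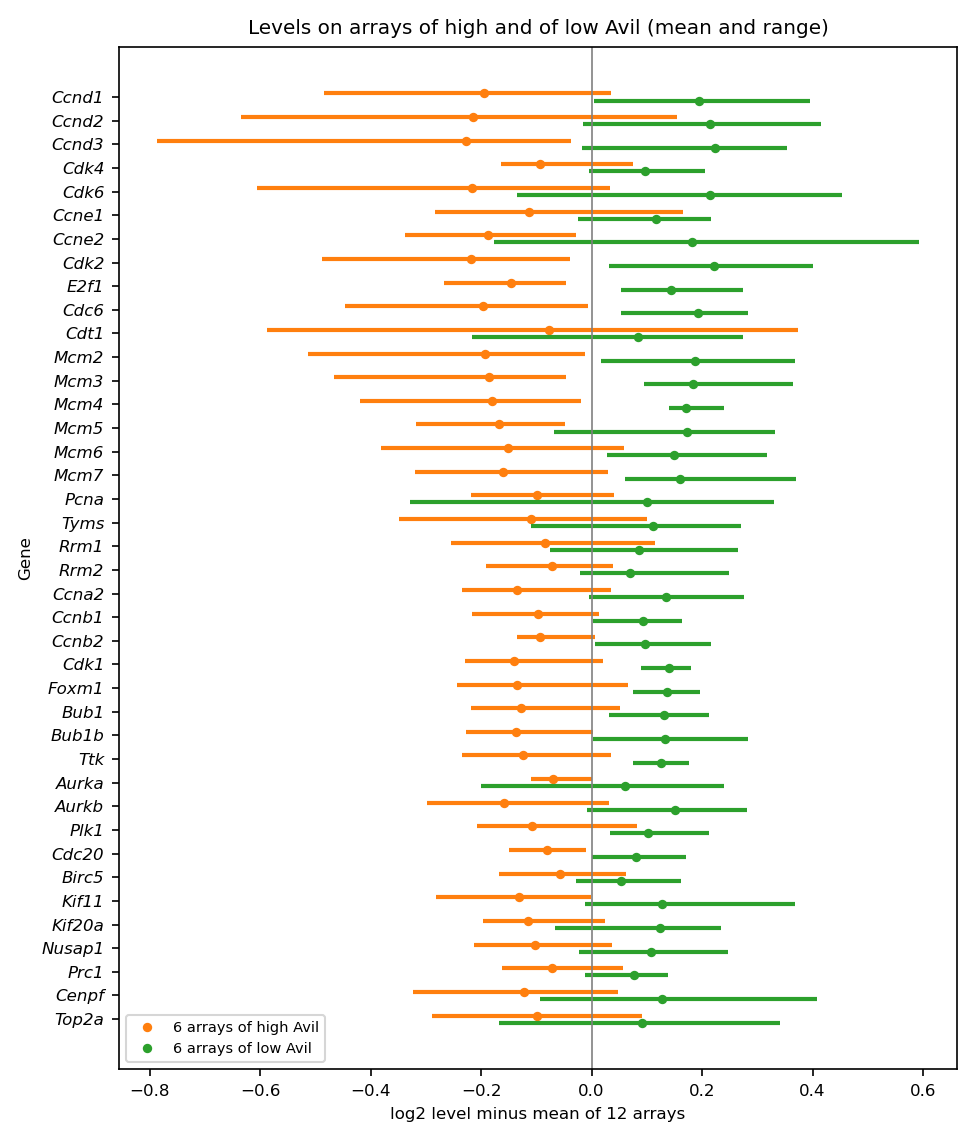
Levels of the 40 genes on arrays of high Avil (orange) and low Avil (green); the horizontal axis is the log2 level minus the gene's mean over 12 arrays, points are means of 6 arrays and lines run from the lowest to the highest array. The orange mean is left of the green mean for all 40 genes, and the lines of 13 genes do not overlap.

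The size varied by role. The median high-minus-low difference was -0.42 for the G1 cyclins and their kinases, -0.33 for the G1 to S genes, -0.34 for licensing and fork genes and -0.26 for the S, G2 and mitosis regulators. It was -0.24 for spindle genes, -0.19 for Top2a and -0.17 for deoxynucleotide synthesis. It was -0.22 for other replication genes, -0.24 for other mitosis genes and -0.20 for inhibitors and E2F partners.

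The median kept its direction in each subset of the arrays. Among control arrays (2 high, 4 low) the median was -0.25 and 40 of 40 genes were lower, against 65.2% of all genes, and among exposed arrays (4 high, 2 low) it was -0.28 with 40 of 40, against 66.1%. Among male arrays the median was -0.28 (40 of 40, against 62.6%) and among female arrays -0.24 (40 of 40, against 68.8%). Each slide held 2 arrays of each kind, with medians of -0.28, -0.34 and -0.17 on slides 1, 2 and 3 and with 38, 40 and 39 of the 40 genes lower (against 59.9%, 67.3% and 66.4%). Without male TCDD 1 the median was -0.26 (40 of 40, against 67.7%). Other scalings gave 40 of 40 as well, with a median of -0.25 after quantile normalization (against 64.7% of all genes), of -0.25 in the authors' deposited value table (against 63.9%) and of -0.24 with normexp background correction (against 71.7%). The subsets were chosen after the data had been seen.

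Markers of several cell types moved with this split. Each list was averaged as the level minus the gene's mean over 12 arrays. The 20 ganglion markers lay between 1.51 and 2.79 on arrays of high Avil and between -2.28 and -1.62 on the others. Avil is in that list, which therefore partly restates the split, and 1 of the 20 was lower on arrays of high Avil. Markers of Schwann and satellite glia lay between 0.16 and 1.52 against -0.97 to -0.56. Those of pituitary progenitors, 9 measured, lay between -0.79 and 0.06 against 0.05 to 0.69, and those of hormone-producing cells between -1.05 and 0.19 against -0.24 to 0.55. Endothelial, macrophage, erythroid, mesenchymal and skeletal muscle markers had median high-minus-low differences of -0.37, -0.46, -0.46, -0.30 and -0.23, against -0.13 for all genes. In each of these lists the array means overlapped between high and low Avil, as in macrophage markers, at -0.67 to 0.09 against -0.26 to 0.42. In bulk RNA a smaller share of dividing cells cannot be told apart from less of these transcripts in each such cell. The part of each marker list in the level of the 40 genes was not tested beyond the values given here.

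The mean of the 40 genes on each array, as the level minus each gene's mean, placed the arrays as follows. Male controls were at 0.08, -0.09 and 0.16, and male TCDD arrays at -0.24, -0.18 and 0.17. Female controls were at 0.21, -0.13 and 0.08, and female TCDD arrays at -0.15, 0.11 and 0.00. The arrays at or below 0 were those of high Avil, and the 6 above 0 were those of low Avil, in every group. The highest exposed male (0.17) and the highest control male (0.16) were both arrays of low Avil.

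**Figure D4:**
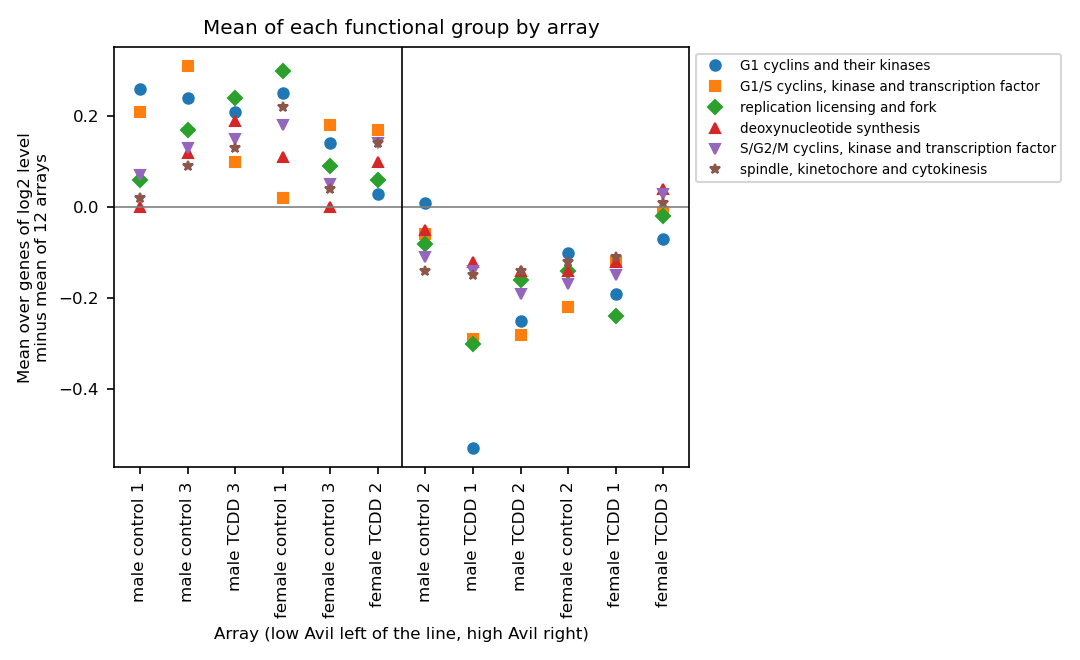
Mean over the genes of each functional group (level minus the gene's mean over 12 arrays, log2), one symbol per group and array; arrays of low Avil stand left of the line and arrays of high Avil right of it. The G1 cyclins and kinases on male TCDD 1, at -0.53, lie lowest.

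With the Avil level as a covariate, the median difference with exposure over both sexes was 0.019 for the 40 genes, against 0.019 for all genes, with 16 of 40 below 0 in place of 35. In males it was 0.0061 and in females 0.020. Without the 6 arrays of high Avil the median was 0.0092 over both sexes, 0.056 in males and -0.023 in females, from 2 control and 1 exposed array in each sex. With the slide as a block the medians went the other way from 0, to -0.25 in males, -0.083 for females and -0.15 for both sexes, with 37 of 40 below 0. The medians of all genes were then -0.10, -0.065 and -0.090 in the same order. Within slide 1 the male median was also -0.25 and within slide 3 the female median was also -0.083. The slide block takes the difference in each sex from these same arrays, so these values add nothing to it. Female control 3, of low Avil, is the only control array of slide 3. Male TCDD 1, of highest Avil, is the only exposed array of slide 1, and without it the male median was -0.039. In none of these settings did any of the 40 genes pass the test (limma).

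The genes varied little over the arrays as a whole. Their SD over the 12 arrays had a median of 0.176 on the log2 scale (0.0928 to 0.322), against 0.242 for all genes, and the median range from the lowest to the highest array was 0.561, against 0.817. Ccnd3, with an SD of 0.322, varied most. The map of levels by gene and array shows the differences running along single arrays and through all functional groups.

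**Figure D5:**
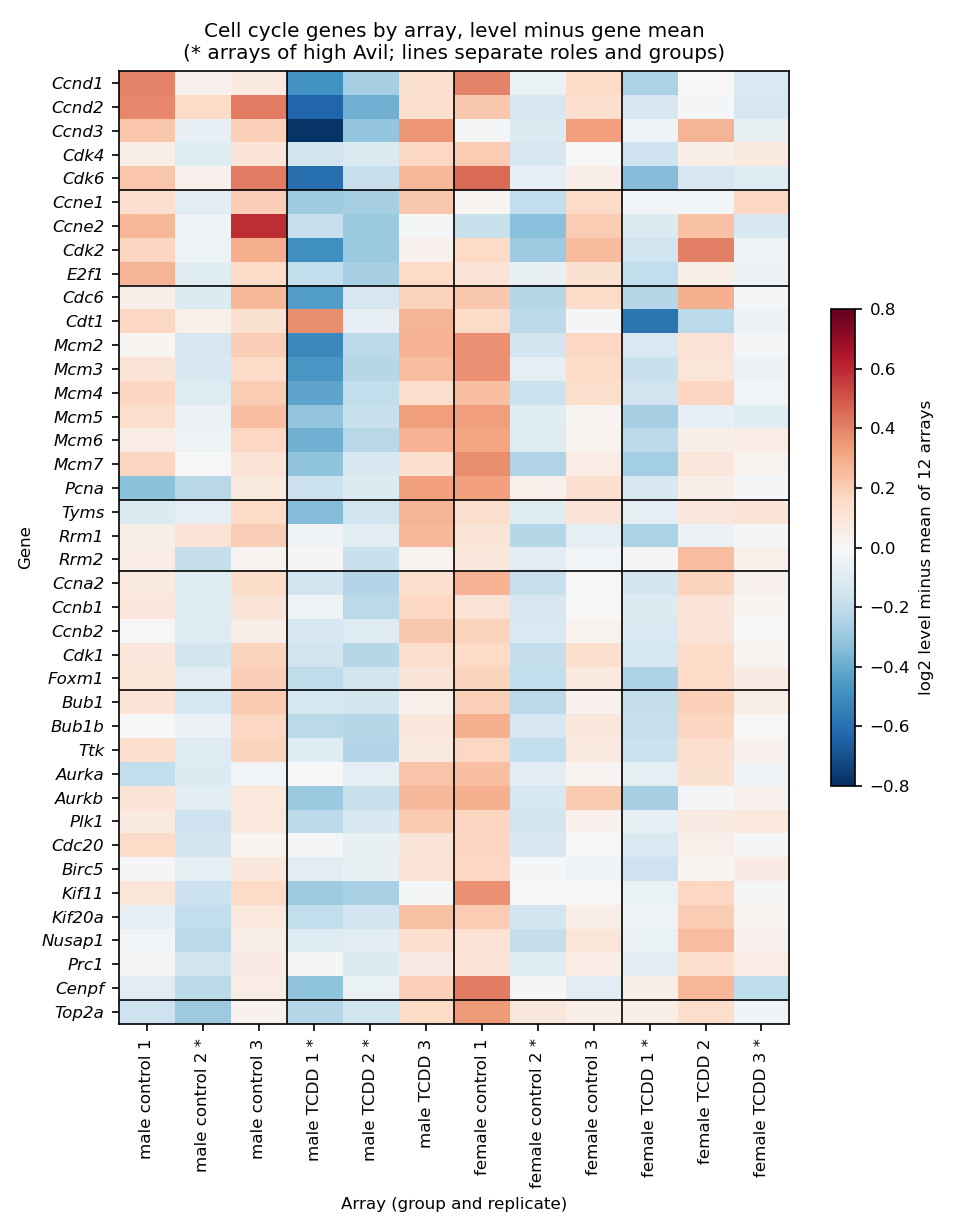
Level of each of the 40 genes (rows, with lines between functional groups) on each of the 12 arrays (columns, with lines between study groups), as log2 level minus the gene's mean; red is above and blue below the mean, and stars mark arrays of high Avil. Starred columns are mostly blue or near white, and Cdt1 on male TCDD 1 is an exception.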

How the data were processed

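Per the labels' protocols, total RNA was labelled with Cy3 and hybridised to a 60-mer rat array. Scanner files as deposited give linear intensity per spot, from Agilent Feature Extraction, version 10.7.1.1 per the file headers or 9.5.1.1 per the submitters' processing notes. Control spots and outlier flags were left out. The authors' processed intensity was put on a log2 scale, each array was set to 0 at its 75th percentile, and replicate spots were averaged. Probes well above background on at least 3 arrays with at least 10 values were kept (22431 of 30367), and the brightest stood for a gene. Group means were fitted to 12 arrays with limma 3.58.1 in R 4.3.3 (variance trend, Benjamini-Hochberg adjustment over 19357 genes), tested on simulated data. The authors' deposited value table, also intensity, had a median of 83.5 in each column and ranks like the scanner values. Equal medians do not show which normalization gave them, and the centring of that table is otherwise unstated.

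The 41 genes, the other lists and the split by Avil were chosen with earlier results of these data known. A further list is not reported here. Values on every array are given for Top2a, Ccnb1, Cdk1, Pcna, Mcm2, Ccnd1, Ccnd2, E2f1, Foxm1 and Cdk6, the 6 genes of largest difference over both sexes, genes whose groups did not overlap in a sex, and the 4 of smallest p between sexes. Same-numbered male and female controls deviated together from their group means (correlations 0.13, 0.75 and 0.35, a pairing read from the data and not the labels). Those of no other pair of groups were all above 0.1. Replicate 2 was the only array of high Avil in each control group, so this pairing cannot be told apart from the Avil split. Alternatives were other background corrections, scalings, filters, probes, names, variance models and blocks, an Avil covariate, and leaving out arrays.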

Additional observations from a re-analysis of the deposited data

How the results depend on the processing

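None of the 40 genes passed the limma test in any comparison under any of up to 26 alternatives, and the lowest adjusted p was 0.0646. Leaving out each array in turn moved the median of the 40 genes between -0.24 and -0.039 for males, between -0.13 and 0.040 for females, and between -0.13 and -0.034 for both sexes together. It moved between -0.20 and 0.039 for the difference between the sexes, and between -0.10 and 0.075 for male against female controls. The female median was above 0 without female control 1 (0.040) and without female TCDD 1 (0.020). The male median without the 6 arrays of high Avil was 0.056, and the median of male minus female controls with the slide as a block was 0.20. Of 1875 values of the 15 named genes under the alternatives, 135 changed sign, and none of these was called in either setting. The cause was not tested. The count of all genes called over both sexes was 4 with the settings reported, 11 with Avil as a covariate, 14 with the slide as a block and 0 without the 6 arrays of high Avil, and in males it was 2, 4, 27 and 0, with 277 within slide 1. The slide block gave 6 in place of 0 for the difference between the sexes and 10 in place of 2 for male against female controls.

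Between exposed and control arrays, correlations of same-numbered arrays were not all above 0.1 in either sex. Over all groups they ran from -0.70 to 0.75. High Avil fell on replicate 2 of the controls, on 1 and 2 of exposed males and on 1 and 3 of exposed females. These correlations therefore cannot tell whether exposed and control samples were paired. With the replicate block the medians stayed at -0.14 (males), -0.044 (females) and -0.080 (both sexes), with 0 of the 40 genes called. For male against female controls, where the correlations of same-numbered arrays were all above 0.1, the block left the median at 0.0011. It called 0 of the 40 genes and 2 of all genes, the same counts as without the block. For exposure over both sexes the block called 2 in place of 4 of all genes.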

Other observations

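Among genes outside the 40, Cdkn2b, which inhibits Cdk4 and Cdk6, had the smallest p of the inhibitors and E2F partners. Its mean level was -3.83 ± 0.353 (SD, n = 3) in control females and -4.94 ± 0.318 in exposed females, and -4.23 ± 0.375 and -4.52 ± 0.0755 in control and exposed males. The log2 difference was -0.70 over both sexes (SE 0.172, adjusted p = 0.594, limma), which did not pass, and its high-minus-low Avil difference was 0.051. Cdkn2d, an inhibitor of the same kinases, differed by 0.39 over both sexes and by 0.71 between arrays of high and low Avil.

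A further kept probe existed for 11 of the 40 genes. Over both sexes 7 of the 11 had the same sign of difference on both probes, and the largest gap was that of Mcm4, at -0.16 on the brightest probe and 0.17 on the other. All 11 further probes had a lower mean on arrays of high Avil.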
